A study of Homo sapiens with 18 samples.

Results

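The genes described here are 9 nucleic acid sensors and the proteins that pass their signal on: the RNA sensor IFIH1 and its adaptor MAVS, the double-stranded RNA binding enzymes EIF2AK2 and ADAR, the DNA sensor CGAS and its adaptor STING1, the kinase TBK1, and the transcription factors IRF3 and IRF7. They were taken as every row of the deposited expression files whose gene symbol is one of these 9 names, whatever its values. The names, and the pathway lists used further below, were chosen with earlier results of these data known. All 9 were listed in both cell lines, among the 17110 genes of the HL-60 files and the 17475 of the MOLM-13 files, or 19068 in either line. HL-60 and MOLM-13 are established human acute myeloid leukaemia lines. Each was treated for 48 h with DMSO (the solvent, used as control), with DAC (decitabine, a cytidine analogue that traps DNA methyltransferases on DNA) or with NTX-301, a compound known here by its code name. There were 3 samples in each of the 6 groups, 18 in all, and total RNA was sequenced. The labels name a dose of 30 nM in HL-60 and one of 15 nM in MOLM-13, and their wording does not settle whether these hold for both drugs or for DAC alone. Dose and line therefore cannot be told apart, and a difference between the drugs is not known to be one at matched dose. The samples are labelled only as triplicates, so p-values measure the spread between these samples, which may be technical.

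Cells recognise nucleic acid that is out of place. IFIH1 (also called MDA5) binds long double-stranded RNA in the cytosol and signals through MAVS on the mitochondrial membrane, whereas CGAS binds cytosolic DNA and makes a cyclic dinucleotide that activates STING1 on the endoplasmic reticulum. Both arms meet at TBK1, which phosphorylates IRF3 and IRF7, the factors that switch on type I interferon genes. EIF2AK2 (PKR) halts translation when it binds double-stranded RNA, and ADAR edits such RNA and so keeps the cell's own transcripts from being sensed. DNA methylation inhibitors are known in other tumour cells for inducing transcripts from repeats that these sensors can bind.

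The deposited values are normalised log2 expression values, in which genes of low level span a narrow range. Read depth is unknown from them. The median log2 value of a sample was 9.52 to 9.56 in HL-60 and 9.79 to 9.84 in MOLM-13, and the median SD of a gene over the 3 samples of a group was 0.027 to 0.031 and 0.037 to 0.043. The lines were normalised separately, so levels in the lines are given side by side and not tested. All 6 general myeloid markers (CD33, SPI1, CEBPA, MPO, LYZ and PTPRC) were listed in both lines. In HL-60 the summed linear value of 5 granule genes chosen as markers of that line (MPO, ELANE, AZU1, PRTN3 and CTSG) was 523300 to 556400 with DMSO, 520900 to 522100 with DAC and 402500 to 412000 with NTX-301. MPO, at a mean log2 value of 18.57 against 12.78 to 15.84 for the rest, dominates that sum. All 5 fell with NTX-301, and with DAC 2 were called higher and 1 lower. The 5 were also listed in MOLM-13, with ELANE, AZU1 and PRTN3 at 15.02, 15.06 and 16.92 there against 14.11, 12.78 and 15.84 in HL-60. In MOLM-13, 3 were called higher with DAC, and 2 higher and 1 lower with NTX-301. In MOLM-13 the myeloid sum was 142300 to 146800 with DMSO, 212800 to 225500 with DAC and 151000 to 157800 with NTX-301. LYZ, at a mean log2 value of 16.77 against 12.04 to 14.54 for the rest, makes up most of that sum. Of the 6 myeloid markers in MOLM-13, 3 were called higher and 0 lower with DAC, and 2 higher and 1 lower with NTX-301. In HL-60, 1 was called higher and 3 lower with DAC, and 1 higher and 4 lower with NTX-301. Of the 5 MOLM-13 markers, 4 were listed (FLT3, HOXA9, MEIS1 and ITGAM), with CD14 the exception. Their sum was 48960 to 51460 with DMSO, 42070 to 43440 with DAC and 45810 to 46310 with NTX-301. With DAC 1 of the 4 was called higher and 3 lower, and with NTX-301 2 were called higher and 1 lower. Of the T-cell, erythroid and stromal lists, 0 genes were listed in HL-60, while 1 of 4 B-cell genes (CD79A, mean log2 value 6.58) and 1 of 4 epithelial genes (KRT8, 4.66) were. With NTX-301 both of these rose in that line, by 0.39 and 0.095, and neither was called with DAC. In MOLM-13 the listed ones were CD3D, COL1A1 and 3 of 5 erythroid genes, at mean log2 values of 5.96 to 8.70, the B-cell gene PAX5 at 5.02, and the epithelial genes KRT8 at 5.27 and KRT18 at 9.36. Of those last 3, KRT8 rose by 0.28 with DAC, and 0 were called with NTX-301. COL1A1 rose by 0.17 with DAC and 0.22 with NTX-301, and CD3D was called with NTX-301 only, at 0.28. Of the 3 erythroid genes, 0 were called with either drug. The part of these marker shifts in the results below was not tested.

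Several of the sensors are themselves interferon-inducible genes, so their promoters were searched on both strands for GAAA, any 2 bases and a further GAAA (read from the other strand as TTTC, any 2 bases and TTTC), the core of the element bound by interferon-activated factors. RefSeq windows on GRCh38.p14 (250 bases before to 50 after a start site) were given for 5 of the 9 genes: IFIH1, MAVS, EIF2AK2, ADAR and TBK1. Of all 35116 such windows, 3.57% held the motif on either strand. IFIH1 held 3 matches, of which the TTTC pair at -159 to -150 and -153 to -144 overlap and the GAAA match lies at -21 to -12 relative to the start site. EIF2AK2 held 1 match, at -6 to 4, and these letters were not found in the windows of MAVS, ADAR or TBK1. MAVS, which was called in opposite directions in the lines, is shown for comparison. Its window holds 34 CpG, against 12 for IFIH1, 30 for EIF2AK2, 35 for TBK1 and 13 or 14 for ADAR. The median over all windows was 14. TBK1 was called in no comparison, and a link between CpG count and response was not tested. The bases before the start site are printed 5′ to 3′ on the gene's own strand, for EIF2AK2 with the 4 bases after it that complete the match. Capitals mark motif matches. The windows are IFIH1 at chr2:162318685-162318934 (minus strand), EIF2AK2 at chr2:37156977-37157230 (minus strand) and MAVS at chr20:3846584-3846833 (plus strand).
IFIH1: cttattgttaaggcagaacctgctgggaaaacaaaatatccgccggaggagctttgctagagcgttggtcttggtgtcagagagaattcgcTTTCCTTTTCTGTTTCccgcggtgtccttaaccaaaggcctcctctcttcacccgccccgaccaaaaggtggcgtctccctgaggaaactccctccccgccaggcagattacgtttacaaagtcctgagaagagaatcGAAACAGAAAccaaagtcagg
EIF2AK2: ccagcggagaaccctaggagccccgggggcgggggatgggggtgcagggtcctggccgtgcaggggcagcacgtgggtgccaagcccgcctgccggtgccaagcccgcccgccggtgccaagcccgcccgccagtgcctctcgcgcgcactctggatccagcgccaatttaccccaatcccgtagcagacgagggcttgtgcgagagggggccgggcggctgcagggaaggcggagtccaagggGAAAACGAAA
MAVS: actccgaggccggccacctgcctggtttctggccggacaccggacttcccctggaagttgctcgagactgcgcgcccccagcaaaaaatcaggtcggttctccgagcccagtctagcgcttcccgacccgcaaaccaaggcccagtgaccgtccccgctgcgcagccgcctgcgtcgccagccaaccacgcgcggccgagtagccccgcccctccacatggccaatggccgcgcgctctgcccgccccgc
A match is a description of the letters and not a tested binding site. Of 26 interferon-stimulated genes in a list used below, 22 had a window and 17 of these held the motif.

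The adaptor STING1 and the transcription factor IRF7 rose with NTX-301 in both lines, in HL-60 by 25.8% and 32% on the linear scale and in MOLM-13 by 12.5% and 14.8%. The difference between the lines passed its own test for STING1 but not for IRF7 (adjusted p = 0.126), whose MOLM-13 call was lost in 3 of 9 fits that left out 1 sample. The STING1 difference did not pass under quantile normalization (-0.069) or without the MOLM-13 NTX-301 replicate 2 (-0.12). The sensor CGAS fell by 13.8% in MOLM-13 with NTX-301 (log2 difference -0.21). MAVS fell in HL-60 and rose in MOLM-13 with either drug. Only its rise with NTX-301 in MOLM-13 passed in every fit that left out 1 sample. IFIH1 and TBK1 passed the test in no comparison with DMSO. A gene was called when limma's adjusted p (Benjamini-Hochberg, over all genes tested) was under 0.05. With DAC in HL-60, 3 of the 9 genes were called (STING1 higher, MAVS and CGAS lower), where 24.2% of all 17046 genes tested were. With NTX-301 in HL-60, 3 were called (IRF7 and STING1 higher, MAVS lower) against 37.4% of all genes. In MOLM-13, 3 genes were called with DAC, all higher (STING1, ADAR and MAVS), against 36.6% of 17475 genes tested. With NTX-301 in MOLM-13, 6 were called (MAVS, EIF2AK2, STING1 and IRF7 higher, CGAS and IRF3 lower) against 45.1% of all genes. The share of the 9 genes called was above the background with NTX-301 in MOLM-13 and with DAC in HL-60 and below it in the other two comparisons, and these shares carry no test. The median log2 difference over the 9 in HL-60 was -0.0081 with DAC and 0.029 with NTX-301, and in MOLM-13 it was 0.062 and 0.097, against medians over all genes of 0.00064, 0.00082, 0.0013 and 0.0034. In HL-60 the 3 drug samples did not overlap the 3 DMSO samples for 3 of the 9 genes under DAC (38.5% of all genes) and for 4 under NTX-301 (47.2%). In MOLM-13 this held for 5 genes under DAC (47.9% of all genes) and 8 under NTX-301 (55.8%). DAC and NTX-301 share the DMSO samples of their line, so the comparisons are not independent of each other.

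**Figure D1:**
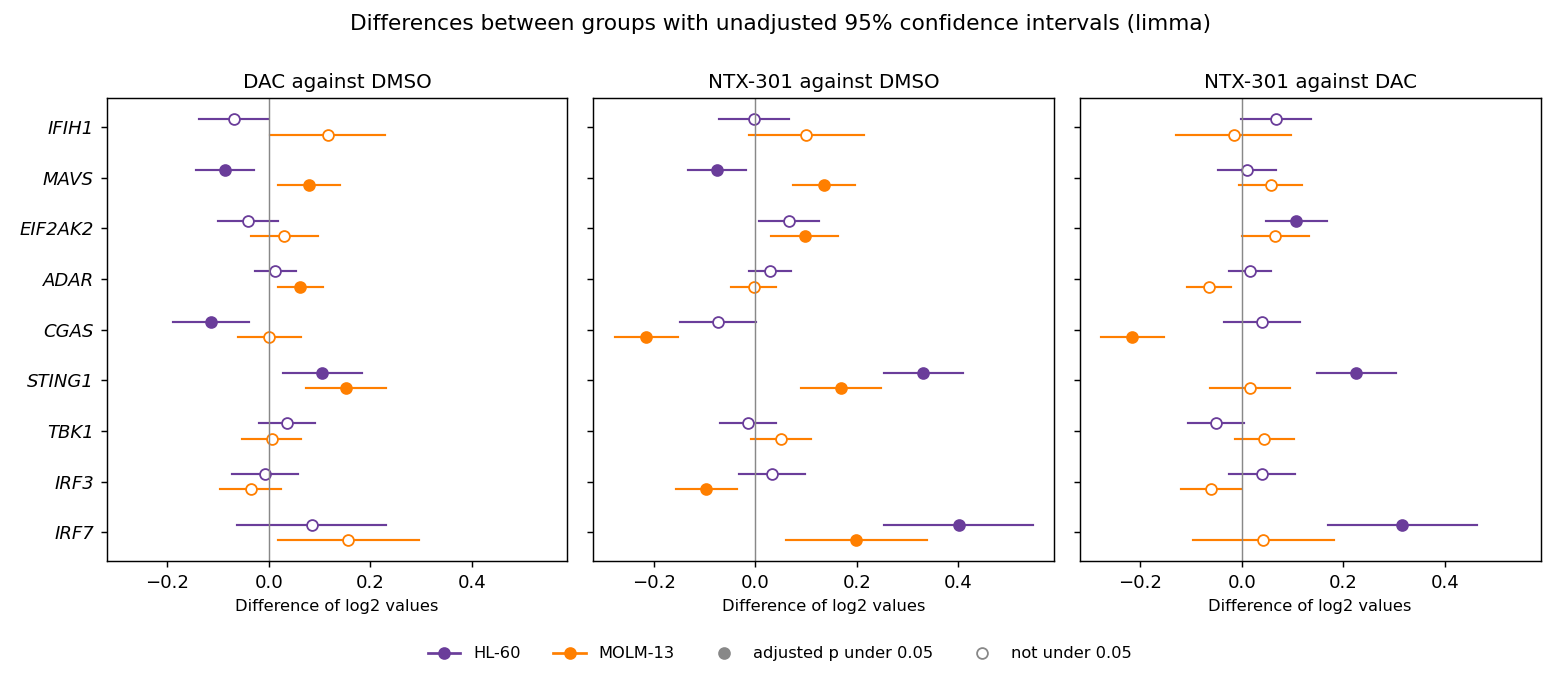
Difference of log2 values (x axis, point with unadjusted 95% confidence interval from limma) for the 9 genes (y axis) in 3 comparisons (panels) and both lines (colours), filled where the adjusted p was under 0.05. STING1 and IRF7 lie farthest to the right, at 0.33 and 0.40 with NTX-301 in HL-60, and CGAS farthest to the left, at -0.21 with NTX-301 in MOLM-13.

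IFIH1, the long double-stranded RNA sensor, moved little in HL-60. Its log2 levels there were 10.46, 10.43 and 10.43 with DMSO, 10.34, 10.34 and 10.43 with DAC, and 10.40, 10.46 and 10.45 with NTX-301. The third DAC sample lay inside the DMSO range and the other two below it, while the NTX-301 samples overlapped DMSO. The log2 difference was -0.069 with DAC (95% confidence interval -0.14 to -0.00052, adjusted p = 0.138) and -0.0023 with NTX-301 (-0.071 to 0.066, adjusted p = 0.964). Without DAC replicate 3, the DAC difference was -0.099 and was called (adjusted p = 0.0464). In MOLM-13 the log2 levels were 9.76, 9.85 and 9.83 with DMSO, 9.96, 9.86 and 9.97 with DAC, and 10.02, 9.87 and 9.86 with NTX-301. Every treated sample lay above every DMSO sample, in both cases by a narrow gap. The differences of 0.12 (interval 0.0032 to 0.23, adjusted p = 0.101) and 0.10 (interval -0.013 to 0.21, adjusted p = 0.136) did not pass the test.

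MAVS, the mitochondrial adaptor of IFIH1 and of the sensor RIGI, went in opposite directions in the lines. In HL-60 its log2 levels were 12.82, 12.72 and 12.79 with DMSO, 12.68, 12.68 and 12.71 with DAC, and 12.72, 12.69 and 12.69 with NTX-301. All 3 DAC samples lay below DMSO, the highest by a small margin, and 1 NTX-301 sample lay within the DMSO range. MAVS fell by 0.086 on the log2 scale with DAC (SE 0.027, adjusted p = 0.0303), and the fall with NTX-301 was 0.076 (SE 0.027, adjusted p = 0.0372). Both calls were fragile. The DAC call was lost without DAC replicate 1 (-0.082), DAC replicate 2 (-0.079), DMSO replicate 1 (-0.064) or DMSO replicate 3 (-0.077), under quantile normalization (-0.075) and with no trend in the variance prior (adjusted p = 0.0516). The NTX-301 call was lost without DMSO replicate 1 (-0.054), DMSO replicate 3 (-0.067), NTX-301 replicate 2 (-0.070) or NTX-301 replicate 3 (-0.071), and without DAC replicate 1, which leaves the value as it is and raises the adjusted p to 0.0510. It was also lost under quantile normalization (-0.042), with no trend (adjusted p = 0.0577) and with only the groups compared (adjusted p = 0.0548).

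In MOLM-13 the MAVS levels (log2) were 13.15, 13.09 and 13.06 with DMSO, 13.15, 13.18 and 13.21 with DAC, and 13.24, 13.20 and 13.26 with NTX-301. The NTX-301 samples stood clear of DMSO, whereas the lowest DAC sample was just above the highest DMSO sample. The rise of MAVS with NTX-301 was 0.14 (SE 0.028, 9.88%, adjusted p = 0.00202), and this call held in all 9 fits that left out 1 sample. It rose by 0.079 with DAC (SE 0.028, 5.66%, adjusted p = 0.0445), a call that was lost in 7 of those 9 fits. The DAC value was 0.080 without DAC replicate 2, 0.066 without DAC replicate 3, 0.075 without DMSO replicate 2 and 0.060 without DMSO replicate 3. It stayed at 0.079 without any one of the NTX-301 replicates 1, 2 and 3, with adjusted p of 0.0597, 0.0502 and 0.0524. Centring also ended the call (0.042), as did no trend (adjusted p = 0.0579) and only the groups compared (adjusted p = 0.0686). Quantile normalization gave larger values, 0.16 with DAC and 0.24 with NTX-301, both called.

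EIF2AK2, the kinase that blocks translation on binding double-stranded RNA, rose in MOLM-13 with NTX-301. Its log2 levels were 12.21, 12.25 and 12.17 with DMSO, 12.28, 12.22 and 12.22 with DAC, and 12.32, 12.33 and 12.27 with NTX-301. The NTX-301 samples lay above all DMSO samples and the DAC samples overlapped both. The rise was 0.097 (SE 0.030, 6.97%, adjusted p = 0.0213), and it was lost without DMSO replicate 3 (0.077), NTX-301 replicate 1 (0.088) or NTX-301 replicate 2 (0.087), and when each sample was centred on its median (0.067), while quantile normalization gave 0.17. With DAC the difference was 0.031 (interval -0.036 to 0.098, adjusted p = 0.465), which turned to -0.0060 under centring and was called at 0.088 under quantile normalization (adjusted p = 0.0303). In HL-60 the levels were 11.98 to 12.09 with DMSO, 11.99 to 12.01 with DAC and 12.08 to 12.12 with NTX-301. Neither difference from DMSO passed, at -0.041 with DAC (interval -0.10 to 0.019, adjusted p = 0.321) and 0.066 with NTX-301 (interval 0.0068 to 0.13, adjusted p = 0.0765). The latter was called at 0.090 without DMSO replicate 1 (adjusted p = 0.0230) and at 0.085 under quantile normalization (adjusted p = 0.0295).

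ADAR, the adenosine deaminase that edits double-stranded RNA, had the smallest SE of the 9 genes in both lines. In HL-60 its log2 levels spanned 14.23 to 14.26 with DMSO, 14.24 to 14.28 with DAC and 14.26 to 14.30 with NTX-301. The differences of 0.013 (interval -0.028 to 0.054, adjusted p = 0.672) and 0.029 (interval -0.012 to 0.069, adjusted p = 0.260) did not pass, although the latter was 0.085 and was called under quantile normalization (adjusted p = 0.00184). In MOLM-13 the levels were 13.96, 13.96 and 13.96 with DMSO, 14.01, 14.02 and 14.03 with DAC, and 13.96, 13.94 and 13.97 with NTX-301, so that the DAC samples stood apart from both other groups. ADAR rose by 0.062 with DAC (SE 0.020, 4.38%, adjusted p = 0.0311). This call was lost without DAC replicate 2 (0.061), DAC replicate 3 (0.058), or DMSO replicates 1 (0.062), 2 (0.060) or 3 (0.064), under centring (0.025) and with only the groups compared (adjusted p = 0.0587), while quantile normalization gave 0.15. With NTX-301 the difference was -0.0030 (interval -0.047 to 0.041, adjusted p = 0.918), a value whose sign turned under quantile normalization, where 0.10 was called (adjusted p = 0.00315).

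CGAS, the cyclic GMP-AMP synthase that senses DNA, gave the largest decrease among the 9 genes, in MOLM-13. Its log2 levels there were 12.75, 12.86 and 12.82 with DMSO, 12.83, 12.78 and 12.83 with DAC, and 12.61, 12.60 and 12.58 with NTX-301. All 3 NTX-301 samples lay well below every DMSO and DAC sample, and the DAC samples overlapped DMSO. CGAS fell by 0.21 with NTX-301 (SE 0.029, adjusted p = 9.30e-05), and leaving out any 1 sample gave -0.24 to -0.19, called each time. Under quantile normalization the fall was smaller (-0.12) and still called. With DAC the difference was 0.0011 (interval -0.061 to 0.064, adjusted p = 0.980), turned to -0.036 under centring, and was called at 0.075 under quantile normalization (adjusted p = 0.0342). In HL-60 the levels were 11.31, 11.39 and 11.38 with DMSO, 11.25, 11.21 and 11.28 with DAC, and 11.23, 11.28 and 11.35 with NTX-301. There the DAC samples lay below DMSO and the NTX-301 samples overlapped it. CGAS fell by 0.11 with DAC (SE 0.035, adjusted p = 0.0300), and the call was lost without DAC replicate 1 (-0.12), DAC replicate 2 (-0.093), DMSO replicate 2 (-0.098) or DMSO replicate 3 (-0.10), under quantile normalization (-0.099) and with no trend (adjusted p = 0.0586). The difference with NTX-301 was -0.074 (interval -0.15 to 0.00068, adjusted p = 0.114), and it was called at -0.11 both without NTX-301 replicate 3 (adjusted p = 0.0291) and under centring (adjusted p = 0.0167).

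STING1, the adaptor that CGAS activates, rose in all 4 comparisons with DMSO. In HL-60 its log2 levels were 9.73, 9.69 and 9.74 with DMSO, 9.80, 9.77 and 9.90 with DAC, and 10.06, 10.07 and 10.03 with NTX-301. The 3 groups did not overlap, in the order DMSO, DAC, NTX-301. The rise of STING1 with NTX-301 was 0.33 (SE 0.036, 25.8%, adjusted p = 6.33e-06), a size larger than that of 96.3% of the genes tested, and 0.32 to 0.34 when any 1 sample was left out. With DAC it rose by 0.11 (SE 0.036, 7.61%, adjusted p = 0.0472), and this call was lost in 8 of 9 such fits. The DAC value was 0.12 without DAC replicate 1, 0.069 without DAC replicate 3, 0.11 without DMSO replicate 1, 0.091 without DMSO replicate 2 and 0.12 without DMSO replicate 3. It was 0.11 without any one of the NTX-301 replicates 1, 2 and 3, with adjusted p of 0.0606, 0.0605 and 0.0554. The call was also lost under quantile normalization (adjusted p = 0.0606), with a pseudocount of 1 (adjusted p = 0.0501) and with only the groups compared (adjusted p = 0.0747).

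In MOLM-13 the STING1 levels (log2) were 12.22, 12.18 and 12.21 with DMSO, 12.31, 12.37 and 12.39 with DAC, and 12.43, 12.30 and 12.39 with NTX-301. Both drug groups lay above DMSO and overlapped each other. STING1 rose by 0.15 with DAC (SE 0.036, 11.2%, adjusted p = 0.00599) and by 0.17 with NTX-301 (SE 0.036, 12.5%, adjusted p = 0.00244). Both calls held in all 9 fits that left out 1 sample, at 0.13 to 0.18 with DAC and 0.14 to 0.21 with NTX-301.

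TBK1, the kinase on which both arms converge, was called in no comparison. Its log2 levels in HL-60 were 11.89 to 11.97 with DMSO, 11.95 to 11.99 with DAC and 11.89 to 11.93 with NTX-301. In MOLM-13 they were 12.31 to 12.34, 12.28 to 12.37 and 12.36 to 12.38 in the same order, so that only the NTX-301 group of MOLM-13 lay wholly outside the DMSO range. The 95% intervals of the 4 differences from DMSO were -0.019 to 0.091 (DAC) and -0.070 to 0.040 (NTX-301) in HL-60, and -0.052 to 0.064 and -0.0078 to 0.11 in MOLM-13. Under quantile normalization the MOLM-13 differences were called, 0.066 for DAC (adjusted p = 0.0462) and 0.12 for NTX-301 (adjusted p = 0.00156).

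IRF3, the constitutive interferon regulatory factor phosphorylated by TBK1, fell in MOLM-13 with NTX-301. Its log2 levels were 12.12, 12.18 and 12.11 with DMSO, 12.12, 12.10 and 12.08 with DAC, and 12.01, 12.05 and 12.05 with NTX-301. All 3 NTX-301 samples lay below every DMSO sample, and 2 of the 3 DAC samples did. IRF3 fell by 0.096 (SE 0.027, adjusted p = 0.0130), and the call was lost without DMSO replicate 2 (-0.075) and under quantile normalization (-0.023). With DAC the difference was -0.036 (interval -0.095 to 0.024, adjusted p = 0.340). In HL-60 the levels spanned 11.32 to 11.37 with DMSO, 11.28 to 11.40 with DAC and 11.38 to 11.39 with NTX-301. The differences there were -0.0081 (interval -0.073 to 0.057, adjusted p = 0.879) and 0.032 (interval -0.033 to 0.097, adjusted p = 0.450), and neither passed.

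IRF7, the interferon regulatory factor that is itself induced by interferon, rose most of the 9 genes in HL-60 and had the largest SE in both lines. Its log2 levels were 8.50, 8.35 and 8.71 with DMSO, 8.65, 8.61 and 8.54 with DAC, and 8.93, 8.88 and 8.95 with NTX-301. The NTX-301 samples lay above all others and the DAC samples fell inside the DMSO range. The rise of IRF7 with NTX-301 was 0.40 (SE 0.068, 32% on the linear scale, adjusted p = 0.000334), a size larger than that of 97.7% of genes, and 0.32 to 0.49 when any 1 sample was left out. With DAC the difference was 0.085 (interval -0.062 to 0.23, adjusted p = 0.409), but without DMSO replicate 3 it was 0.18 and was called (adjusted p = 0.0336). In MOLM-13 the levels were 9.21, 9.0 and 9.21 with DMSO, 9.24, 9.32 and 9.34 with DAC, and 9.35, 9.40 and 9.27 with NTX-301. Both drug groups lay above DMSO, in which the second sample was low. The rise with NTX-301 was 0.20 (SE 0.064, 14.8%, adjusted p = 0.0236). That call was lost without DMSO replicate 2 (0.13), NTX-301 replicate 1 (0.20) or NTX-301 replicate 2 (0.17), and under quantile normalization (0.12). With DAC the difference was 0.16 (interval 0.018 to 0.30, adjusted p = 0.0735), called when testing was limited to genes whose mean log2 value reached 8 (adjusted p = 0.0422).

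**Figure D2:**
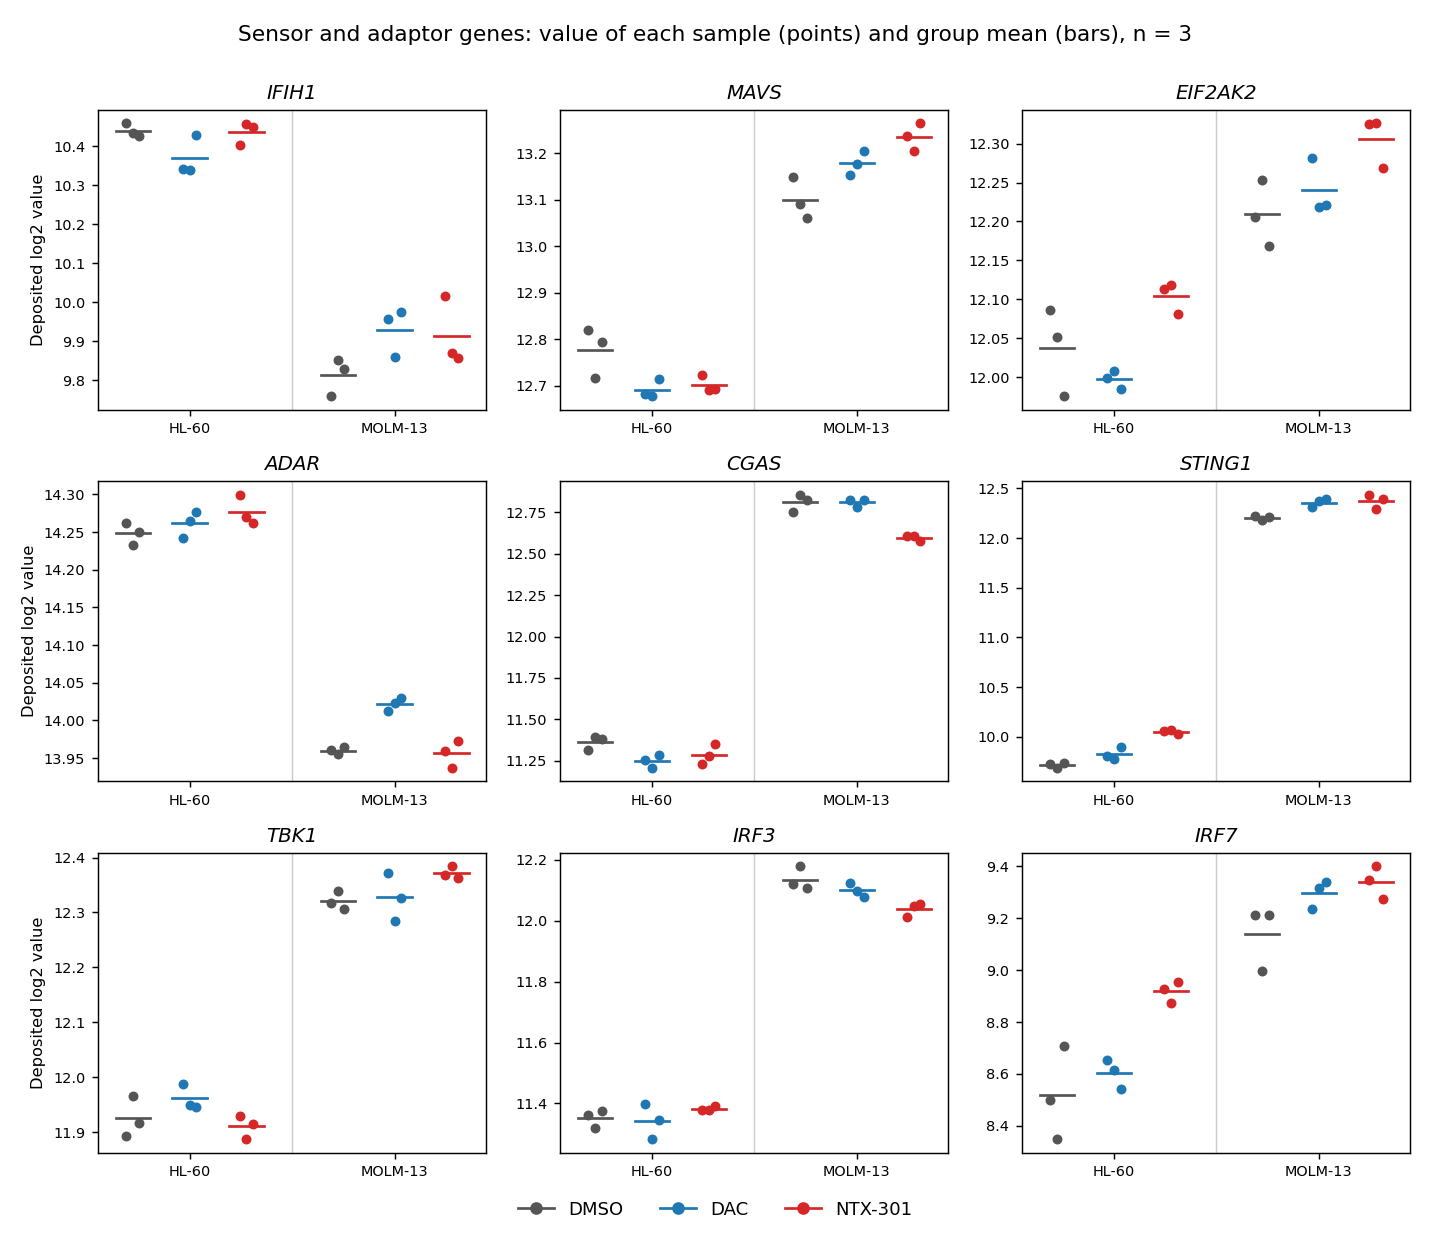
Log2 expression (y axis, with its own range in each panel) of the 9 genes in every sample (points) by group (x axis), with the group mean. In HL-60 the STING1 samples rise from 9.69 to 9.74 with DMSO to 10.03 to 10.07 with NTX-301, and in MOLM-13 the CGAS samples with NTX-301 lie at 12.58 to 12.61, below all others of that line.

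The drugs were then compared with each other in each line, which gave 18 differences for the 9 genes, adjusted over all genes of the line. In HL-60, 3 of the 9 genes were called, all higher with NTX-301 than with DAC, against 30.4% of all genes in either direction. IRF7 was higher by 0.32 (SE 0.068, 24.5%, adjusted p = 0.00298) and STING1 by 0.23 (SE 0.036, 16.9%, adjusted p = 0.000315), and in both the groups did not overlap. EIF2AK2 was higher by 0.11 (SE 0.028, 7.72%, adjusted p = 0.00941), a call lost when samples were centred (0.073, adjusted p = 0.0554). Groups did not overlap for 4 genes, against 44.4% of all genes, with TBK1 the one of them not called. In the other 6 genes the difference did not pass, with intervals reaching from -0.11 at the lowest (TBK1) to 0.14 at the highest (IFIH1). Of these, IFIH1 was called without DAC replicate 3, at 0.097 (adjusted p = 0.0414), TBK1 under centring, at -0.085 (adjusted p = 0.0188), and ADAR under quantile normalization, at 0.056 (adjusted p = 0.0233). In MOLM-13 only CGAS was called, against 7.42% of all genes. With NTX-301 the CGAS level lay below that of DAC, with a log2 difference of -0.22 (SE 0.029, adjusted p = 0.00177), a size larger than that of 97.8% of genes, and -0.23 to -0.21 when any 1 sample was left out. For STING1 the 2 drugs differed by 0.017 in MOLM-13 (interval -0.062 to 0.096, adjusted p = 0.834). For IRF7 they differed by 0.042 (interval -0.097 to 0.18, adjusted p = 0.756), so a difference as large as in HL-60 lies outside both intervals. For ADAR the log2 difference was -0.065 (interval -0.11 to -0.021, adjusted p = 0.0755), with no overlap between the groups. Groups did not overlap for 3 genes (ADAR, CGAS and IRF3), against 27.3% of all genes. The number of genes called over the whole table in this comparison fell from 1297 to 767, 479 and 462 without DAC replicate 1, NTX-301 replicate 2 and NTX-301 replicate 3.

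The effect of each drug was compared between the lines in 1 fit of all 18 samples, over the 15474 genes tested in both. For DAC, 2 of the 9 genes differed between the lines, against 30.0% of all genes. MAVS differed by 0.17 (SE 0.039, adjusted p = 0.00329), from -0.086 in HL-60 to 0.079 in MOLM-13. IFIH1 differed by 0.19 (SE 0.061, adjusted p = 0.0273), from -0.069 to 0.12. For NTX-301, 4 genes differed, against 40.0% of all genes. MAVS differed by 0.21 (SE 0.039, adjusted p = 0.000268), with -0.076 in HL-60 and 0.14 in MOLM-13. The other 3 had lower effects in MOLM-13, by -0.16 in STING1 (adjusted p = 0.0178), -0.14 in CGAS (adjusted p = 0.0216) and -0.13 in IRF3 (adjusted p = 0.0161). STING1 rose in both lines and less in MOLM-13. For IRF7 the smaller rise in MOLM-13 gave a difference of -0.20 (interval -0.42 to 0.012, adjusted p = 0.126), which was called without the HL-60 DMSO replicate 3 (-0.30) or the MOLM-13 DMSO replicate 2 (-0.27). The CGAS difference in the DAC effect, 0.11 (adjusted p = 0.0709), was called without the HL-60 DMSO replicate 1 or the MOLM-13 DMSO replicate 2, at 0.14 in both cases, and at 0.17 under quantile normalization. Under that normalization the DAC effects of ADAR and EIF2AK2 also differed, by 0.12 each, as did the NTX-301 effect of TBK1, by 0.11.

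Of the 6 differences between lines that were called, both MAVS differences held in all 18 fits that left out 1 sample and under all 7 other settings. The IFIH1 difference was lost without the HL-60 samples DAC replicate 1 (0.17), DAC replicate 2 (0.17) or DMSO replicate 1 (0.18), or the MOLM-13 samples DAC replicate 3 (0.16) or DMSO replicate 1 (0.16). The CGAS difference was lost without the HL-60 samples DMSO replicate 1 (-0.12) or NTX-301 replicate 3 (-0.11), or the MOLM-13 sample DMSO replicate 2 (-0.12). STING1 lost its call without the MOLM-13 sample NTX-301 replicate 2 (-0.12), and IRF3 without the MOLM-13 sample DMSO replicate 2 (-0.11). Under quantile normalization the differences of IFIH1 (0.14), CGAS (-0.072), STING1 (-0.069) and IRF3 (-0.076) were not called, nor was that of IFIH1 under centring (0.15).

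**Figure D3:**
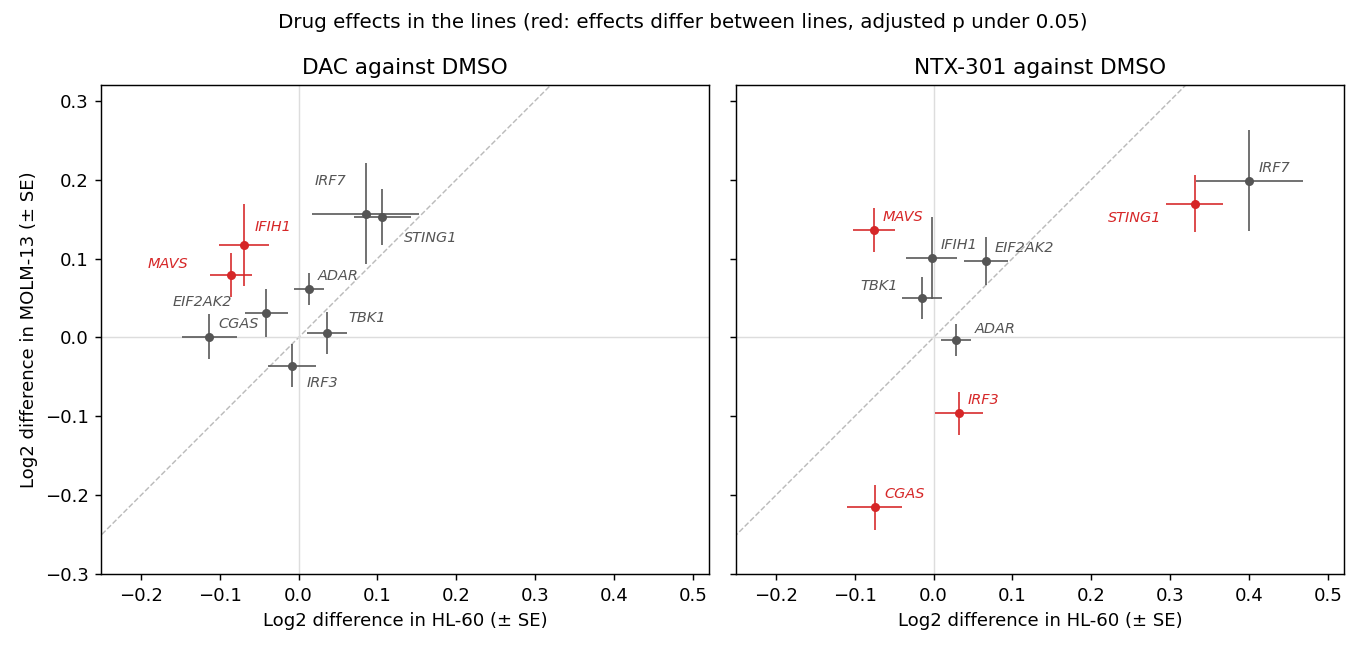
Log2 difference from DMSO in HL-60 (x axis) against that in MOLM-13 (y axis), with SE, for DAC (left) and NTX-301 (right). The dashed line marks equal effects, and red marks genes whose effects differed between lines. MAVS lies left of 0 on the x axis and above 0 on the y axis with both drugs.

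Over the 18 samples, with each line centred on its own mean, STING1 and IRF7 followed each other most closely of the 36 pairs among the 9 genes (Pearson r = 0.82, Spearman rho = 0.83, with r = 0.86 within HL-60 and 0.72 within MOLM-13). The 3 treatments are shared by all genes of a sample, so these values describe the samples and carry no test. CGAS and IRF3 came next at r = 0.60, but with 0.14 within HL-60 and 0.82 within MOLM-13. MAVS and CGAS had r of 0.44 within HL-60 and -0.77 within MOLM-13. Among 9701 other genes whose mean log2 value reached 8 in each line, the pattern of STING1 was matched best by CSRNP2 (r = 0.96, rho = 0.97, and r = 0.93 without the 2 samples farthest from the median of STING1) and IGF2R (r = 0.94). That of IRF7 was matched best by MYO9B and MRC2 (r = 0.91 for each), and that of MAVS by ZNF407 and SH3KBP1 (0.90 for each). For CGAS the closest were COX8A (0.90) and AAMP (0.88), and for EIF2AK2 they were MPPE1 (0.88) and DDX60 (0.87). For IRF3 they were TRAIP (0.84) and ARFIP2 (0.80), for IFIH1 RNF125 (0.82) and ITGA6 (0.77), and for TBK1 THAP9-AS1 (0.82) and RNF19A (0.75). ADAR was nearest to TNFSF13 and MNDA (0.80 for each), the latter with r of only 0.011 within HL-60 and 0.95 within MOLM-13.

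The rest of the pathway was described with 6 lists that exclude the 9 genes. They cover other RNA sensing genes, other DNA sensing genes, and other kinases and transcription factors. They also cover the eIF2alpha branch, interferons with their receptor and signalling, and interferon-stimulated genes. The eIF2alpha branch holds the gene of eIF2alpha, the other eIF2alpha kinases (EIF2AK1, EIF2AK3 and EIF2AK4), phosphatase subunits, ATF4 and DDIT3. The type I and III interferon genes IFNB1, IFNA1 and IFNL1 were not listed in either line, nor were the sensors ZBP1 and AIM2. Of 77 listed genes in HL-60, 9 rose and 14 fell with DAC, and 27 rose and 11 fell with NTX-301. Of 82 in MOLM-13, 32 rose and 15 fell with DAC, and 29 rose and 16 fell with NTX-301. When samples were centred, the split with NTX-301 was 20 against 23 in HL-60 and 23 against 21 in MOLM-13. Over all genes the centred split with NTX-301 was 2270 higher against 6053 lower in HL-60, and 2735 against 5760 in MOLM-13. With DAC the centred split over all genes was 2058 against 2069 in HL-60 and 1960 against 5731 in MOLM-13. Without centring, 18.3% of all genes were called higher and 19.2% lower in HL-60 with NTX-301, and the MOLM-13 shares were 20.3% and 24.8%. With DAC the HL-60 shares were 11.6% and 12.6% and the MOLM-13 shares 15.4% and 21.2%.

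Interferon-stimulated genes that passed the test with NTX-301 all rose. Of 20 listed in HL-60, 12 rose and 0 fell, with a median log2 difference of 0.11, although centring gave 7 against 2, quantile normalization 6 against 0, testing only genes whose mean log2 value reached 8 gave 7 that rose, and leaving out DMSO replicate 1 gave 1 that fell. BST2, which tethers budding virus to the cell, rose by 0.77 (SE 0.043, adjusted p = 1.05e-08), and HERC5, the ligase for ISG15, by 0.49 (SE 0.036, adjusted p = 1.44e-07). With DAC in HL-60 only 3 rose and 3 fell, with HERC5 up by 0.39 and the antiviral GTPase gene MX2 up by 0.42. Of all genes in HL-60, 18.3% were called higher and 19.2% lower with NTX-301, and 11.6% and 12.6% with DAC. The MOLM-13 shares were 20.3% and 24.8% with NTX-301, and 15.4% and 21.2% with DAC. Of 21 listed in MOLM-13, 11 rose and 0 fell with each drug, with a median of 0.13 for both. With NTX-301 the 11 became 7 without DMSO replicate 1, without NTX-301 replicate 1 and under centring, and for each drug they became 7 when testing was limited to genes whose mean log2 value reached 8. TRIM22, an antiviral ligase, rose there by 0.54 with DAC and 0.58 with NTX-301 (SE 0.026 for each), IFI6 by 0.44 with DAC and the chemokine gene CCL5 by 0.34 with NTX-301. Among the receptor and signalling genes, 2 of 9 rose with DAC and 5 of 9 with NTX-301 in HL-60 and 0 fell with either, though 1 fell with NTX-301 under centring. The 2 that rose with DAC were 1 without DAC replicate 2 or DMSO replicate 3, and 4 under quantile normalization. In MOLM-13, 7 rose and 1 fell with DAC (4 and 1 when centred, and 0 fell without DMSO replicate 2), and 5 rose and 0 fell with NTX-301 (1 fell under centring or quantile normalization). The receptor chain IFNAR2 rose in all 4 comparisons, in HL-60 by 0.13 (DAC) and 0.30 (NTX-301), and in MOLM-13 by 0.15 and 0.23. STAT2, a transcription factor of the interferon response, rose by 0.27 with NTX-301 in HL-60, and by 0.16 with DAC and 0.22 with NTX-301 in MOLM-13. IFNAR1, the other receptor chain, rose by 0.12 with DAC in HL-60, a call lost without DAC replicate 2 (0.095) or DMSO replicate 3 (0.11).

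The eIF2alpha branch went the other way. Of its 8 genes 0 rose with either drug in either line, including under centring and quantile normalization. In HL-60, 4 fell with DAC and 7 with NTX-301, and in MOLM-13, 4 fell with each drug. PPP1R15A, a phosphatase subunit that restores translation, fell by 0.37 with DAC and by 0.30 with NTX-301 in HL-60, and DDIT3, a stress-induced transcription factor, fell by 0.32 with DAC there. ATF4, the transcription factor translated when eIF2alpha is phosphorylated, fell by 0.27 with NTX-301 in HL-60, and by 0.41 with DAC and 0.39 with NTX-301 in MOLM-13. EIF2S1, which encodes eIF2alpha itself, fell by 0.26 with DAC and by 0.33 with NTX-301 in MOLM-13, values that were -0.16 and -0.22 under quantile normalization, where 2 genes fell with NTX-301 in that line.

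The DNA sensing list was mixed. In HL-60, 2 of 13 rose and 4 fell with DAC, and 3 rose and 2 fell with NTX-301. The 2 that rose with DAC were 1 without DAC replicate 2 or DMSO replicate 2. The 2 that fell with NTX-301 were 1 without NTX-301 replicate 1 or 2, 4 without NTX-301 replicate 3, 5 under centring and 0 under quantile normalization, where 5 rose. In MOLM-13, 4 rose and 7 fell with DAC, and 3 rose and 7 fell with NTX-301. Over all genes in HL-60, 11.6% were called higher and 12.6% lower with DAC, and 18.3% and 19.2% with NTX-301. The MOLM-13 shares were 15.4% and 21.2% with DAC, and 20.3% and 24.8% with NTX-301. DNASE2, the lysosomal nuclease that degrades DNA before it can be sensed, had the largest rise of any listed pathway gene named here. It rose by 0.46 with DAC and 0.68 with NTX-301 in HL-60, and by 1.15 (SE 0.058, adjusted p = 1.88e-07) with DAC and 0.68 with NTX-301 in MOLM-13. RNASEH2A, the catalytic subunit of the nuclease that removes RNA from DNA, fell in MOLM-13 by 0.29 with DAC and by 0.40 with NTX-301. IFI16, a nuclear DNA sensor, rose by 0.40 with NTX-301 in HL-60, and PQBP1, a cofactor of CGAS, fell by 0.18 with DAC there.

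Among other RNA sensing genes, 0 of 15 rose and 2 fell with DAC in HL-60, and 3 rose and 1 fell with NTX-301. The 2 that fell with DAC were 1 without DAC replicate 1, DMSO replicate 3 or any one NTX-301 replicate, and the 1 that fell with NTX-301 was 4 under centring and 2 without NTX-301 replicate 2 or 3. Without NTX-301 replicate 2, 1 gene rose with DAC. Of all genes in HL-60, 11.6% were called higher and 12.6% lower with DAC, and 18.3% and 19.2% with NTX-301. The shares in MOLM-13 were 15.4% and 21.2% with DAC, and 20.3% and 24.8% with NTX-301. In MOLM-13, 7 of 17 rose and 1 fell with DAC, and 7 rose and 2 fell with NTX-301. Those 7 became 4 with NTX-301 without DMSO replicate 2, and 3 with DAC and 4 with NTX-301 when testing was limited to genes whose mean log2 value reached 8. OAS3, an oligoadenylate synthetase that binds double-stranded RNA, rose by 0.54 with NTX-301 in HL-60 (SE 0.034, adjusted p = 4.14e-08), and by 0.19 with DAC and 0.23 with NTX-301 in MOLM-13. TRIM25, a ubiquitin ligase that activates the sensor RIGI, fell in HL-60 by 0.18 with DAC and by 0.33 with NTX-301. PRKRA, a protein activator of EIF2AK2, fell in MOLM-13 by 0.18 with DAC and by 0.22 with NTX-301.

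Of the other kinases and transcription factors, 2 of 12 rose and 1 fell with DAC in HL-60, and 4 rose and 1 fell with NTX-301. The 1 that fell with DAC was not called without DAC replicate 2 or DMSO replicate 3. The 1 that fell with NTX-301 was not called in 6 of 9 fits that left out 1 sample, namely any one DAC replicate, DMSO replicate 1, NTX-301 replicate 2 or NTX-301 replicate 3, and centring gave 3. In MOLM-13, 3 of 14 rose with each drug, and 2 fell with DAC and 3 with NTX-301. Over all genes in HL-60, 11.6% were called higher and 12.6% lower with DAC, and 18.3% and 19.2% with NTX-301. In MOLM-13 these shares were 15.4% and 21.2% with DAC, and 20.3% and 24.8% with NTX-301. IKBKE, the close relative of TBK1, rose by 0.35 with NTX-301 in HL-60, as did IRF5 by 0.37. IRF8, a myeloid member of the IRF family, fell in MOLM-13 by 0.22 with DAC (-0.12 under quantile normalization) and by 0.46 with NTX-301. AZI2, an adaptor of TBK1, rose by 0.16 with DAC in HL-60. CHUK, a kinase of the NF-kB pathway, rose by 0.095 with DAC in HL-60 and fell in MOLM-13 by 0.13 with DAC and by 0.22 with NTX-301, the first of these falls being lost under quantile normalization (-0.066) and the second smaller there (-0.14).

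**Figure D4:**
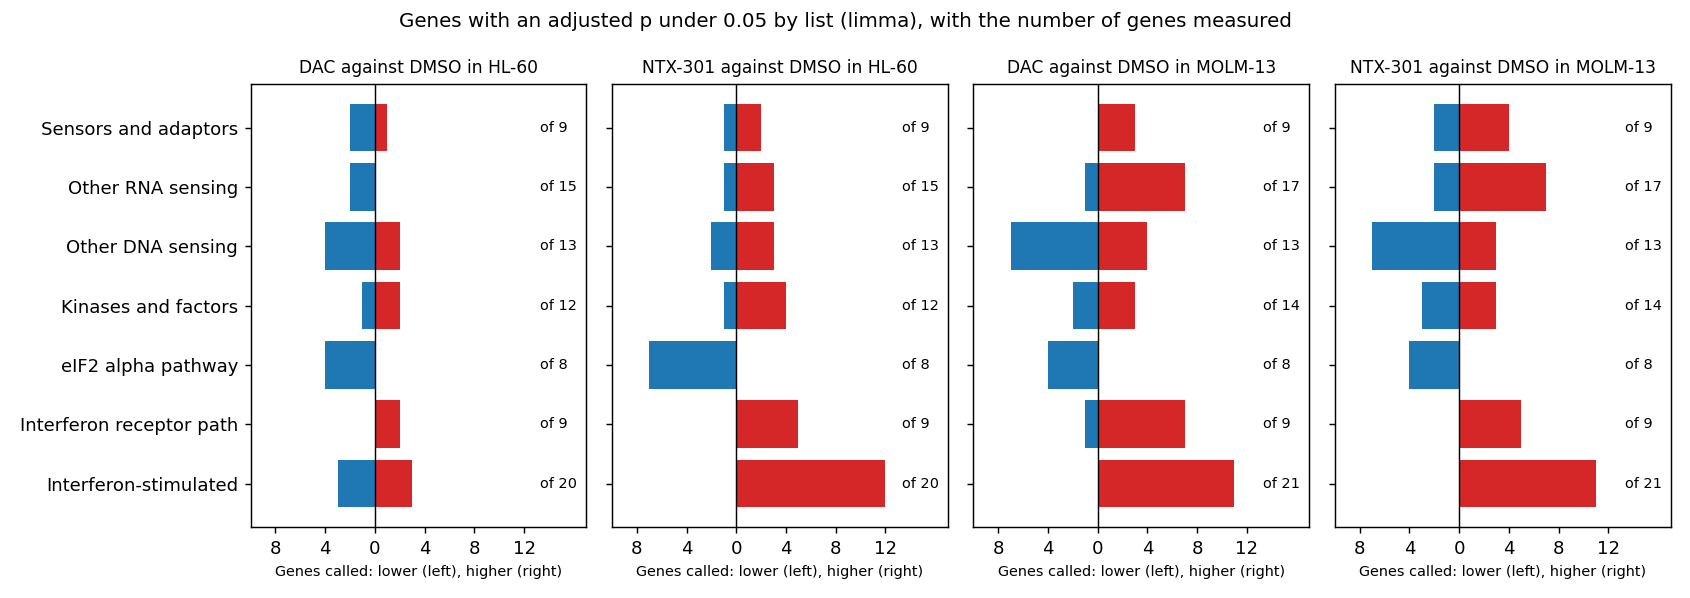
Number of genes called higher and lower (x axis) among the 9 sensors and adaptors and in each of the 6 pathway lists (y axis), for each drug and line, with the number measured. The interferon-stimulated list has 12 higher and 0 lower with NTX-301 in HL-60, and the eIF2alpha list has 0 higher in every panel.

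Between the drugs, 29 of the 77 listed pathway genes were higher and 11 lower with NTX-301 than with DAC in HL-60. Of all genes, 15.4% and 15.0% were. When samples were centred, the split there was 23 against 17, and over all genes it was 1746 against 5770. In MOLM-13, 0 of 82 were higher and 6 lower, where 3.01% and 4.41% of all genes were. The latter 6 were 3 without NTX-301 replicate 2 or NTX-301 replicate 3. Between the lines, 23 of 76 genes had a higher and 11 a lower DAC effect in MOLM-13, against 12.1% and 17.9% of all genes tested in both lines. When samples were centred, the split of the DAC effect over all genes was 1346 higher against 4548 lower. For the NTX-301 effect 10 of the 76 were higher and 21 lower, against 17.6% and 22.4% of all genes. Quantile normalization gave 12 against 15, and over all genes 2930 against 2983.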

How the data were processed

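Total RNA libraries of 18 samples were analysed. The authors deposited 1 file per sample with a normalised log2 value per gene. The submitters' processing notes list FastQC, Trimmomatic 0.38, HISAT2, StringTie and the build hg19, and the normalisation method and annotation are not given in the sources used here. From these log2 values, with no pseudocount, limma 3.58.1 in R 4.3.3 (trended variance prior) was fitted to the 9 samples of each line, and to all 18 for differences between lines. A gene entered the test when its linear value reached 1 in 3 or more samples, a filter that removed 64 HL-60 genes and 0 MOLM-13 genes. Adjusted p is Benjamini-Hochberg's, over the whole table of a fit. In simulated data with 3 samples per group, 25.4% (HL-60) and 16.4% (MOLM-13) of genes changed by 0.1 were recovered, and of those changed by 0.25, 93.2% and 71.8%. Changes of 0.1, 0.25 and 0.5 were given to only 67, 73 and 60 of 17046 genes (HL-60) and 61, 71 and 68 of 17475 (MOLM-13). A far larger share was called with the drugs. The adjusted p depends on that share, so these rates do not give the recovery in the real comparisons. The members and gene lists were chosen with earlier results of these data known. Each list names the 2 called genes of lowest adjusted p per comparison with DMSO, except where a result is not reported here. Genes like a member are the 2 of highest r. RIGI was matched under its older symbol DDX58 by gene ID. Other scalings, filters, priors and subsets of samples were tried.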

Additional observations from a re-analysis of the deposited data

Results flagged for a closer look

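A drug effect that differed between HL-60 and MOLM-13 in a direct test of the difference was found for 6 gene and drug pairs. They were 2 of the 9 genes for DAC, where 30.0% of all genes tested in both lines differed, and 4 for NTX-301, where 40.0% did. Of the 6, only the MAVS differences kept their call under quantile normalization. For DAC, the difference of log2 effects (MOLM-13 less HL-60) was 0.19 for IFIH1 (adjusted p = 0.0273) and 0.17 for MAVS (adjusted p = 0.00329). For NTX-301 it was 0.21 for MAVS (adjusted p = 0.000268), -0.14 for CGAS (adjusted p = 0.0216), -0.16 for STING1 (adjusted p = 0.0178) and -0.13 for IRF3 (adjusted p = 0.0161), all by limma on 18 samples. MAVS was the one gene of the 9 called in opposite directions in the lines, and it was so with both drugs. The stated dose differs between the lines, so dose and line cannot be told apart here.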

How the results depend on the processing

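Among the 9 genes, the rises of STING1 with NTX-301 in HL-60 and with both drugs in MOLM-13, of IRF7 with NTX-301 in HL-60, of MAVS with NTX-301 in MOLM-13, and the fall of CGAS with NTX-301 in MOLM-13 kept direction and call under all 17 alternatives. The number of the 9 genes called moved as follows. With DAC in HL-60 (3) it was 1 with no trend in the variance prior and 0 under quantile normalization, and 0 to 3 when 1 sample was left out. With DAC in MOLM-13 (3) it was 1 when centred, 1 with only the groups compared, 1 with the replicate block and 6 under quantile normalization, and 1 to 3 when 1 sample was left out. For the DAC effect between lines (2) it was 1 when centred and 4 under quantile normalization (1 to 3 leaving out 1 sample), and for NTX-301 (4) it was 2 under quantile normalization. For NTX-301 against DAC in MOLM-13 (1) it was 2 with no trend. Pathway genes differing between lines for DAC were 22 in place of 34 when the mean log2 value had to reach 8, and for NTX-301 against DAC in MOLM-13 they were 3 to 6 leaving out 1 sample.

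Uncalled values near 0 turned sign. Under centring these were, for ADAR, -0.018 (NTX-301 against DAC) and -0.0028 (NTX-301) in HL-60, for MAVS -0.024 (NTX-301 against DAC, HL-60), and with DAC in MOLM-13 -0.036 for CGAS, -0.0060 for EIF2AK2 and -0.031 for TBK1. Under quantile normalization they were 0.10 for ADAR (NTX-301, MOLM-13), 0.020 for ADAR (NTX-301, between lines), 0.0076, 0.015 and 0.0072 for IRF3 with DAC (HL-60, MOLM-13 and between lines), 0.022 for TBK1 (DAC, between lines) and 0.0082 for TBK1 (NTX-301, HL-60). Leaving out 1 sample gave -0.011 to 0.0067 for ADAR (NTX-301, MOLM-13), -0.027 to 0.024 for CGAS and -0.016 to 0.028 for TBK1 (DAC, MOLM-13). For IFIH1 it gave -0.067 to 0.012 (NTX-301 against DAC, MOLM-13) and -0.012 to 0.014 (NTX-301, HL-60), and for STING1 -0.014 to 0.056 (NTX-301 against DAC, MOLM-13). For IRF3 with DAC it gave -0.037 to 0.022 (HL-60) and -0.058 to 0.00076 (between lines), for IRF7 with DAC -0.00012 to 0.18 (HL-60) and -0.022 to 0.16 (between lines), and for TBK1 with NTX-301 in HL-60 -0.031 to 0.0055. The cause of these moves was not tested.

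Samples of the same number did not deviate together: their correlations were -0.057 to 0.12 in HL-60 and -0.16 to 0.11 in MOLM-13, over 0.1 in 1 of 9 pairs in each line, so the numbers were not treated as pairing. With the replicate block, NTX-301 against DAC in MOLM-13 called 817 genes in place of 1297 (462 to 1322 leaving out 1 sample), and the DAC calls of ADAR and MAVS in MOLM-13 and of STING1 in HL-60 were lost (adjusted p = 0.0667, 0.0754 and 0.0573). Centring gave 2 genes higher and 2 lower of the 9 with NTX-301 in HL-60 and quantile normalization 4 and 0, in place of 2 and 1. The median log2 difference over all genes moved by less than 0.1 under every scaling, but some called differences are smaller than 0.1. Centring took it to -0.031 with NTX-301 in HL-60, and to -0.036 with DAC and -0.027 with NTX-301 in MOLM-13. Calls over all genes then split 2270 higher against 6053 lower with NTX-301 in HL-60, in place of 3115 and 3265. With DAC in MOLM-13 they split 1960 against 5731, in place of 2689 and 3705. With DAC in HL-60 they stayed near even, at 2058 and 2069. Genes of low level span a narrow range (median range 0.021 and 0.027 at log2 values of 0 to 3, against 0.19 and 0.24 at 10 to 12), so small values limit what could be called there.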
